A study of Rattus norvegicus with 32 samples.

Results

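Rat mammary glands with the most and the least transcript of 6 genes of cell division were compared, as 8 arrays against 8. The 6 genes were Cdk1, Ccnb1, Ccnb2, Ccna2, Top2a and Mki67, and the proliferation score of an array was the mean of their log2 intensities, each centred on its mean over the arrays. Of 31 arrays scored, the 8 with the highest score are called the high arrays, the 8 with the lowest are called the low arrays, and 15 lay between them. The series holds 32 arrays, and that of 40 h, which the study discarded because its values looked corrupted, was left out of the ranking. Each array held RNA of 1 virgin Sprague Dawley rat that received no treatment, killed at its own hour of the 4-day estrous cycle, so no hour has a replicate. Hours are counted from midnight of the first cycle day, and the rats were adults when obtained, while their age when killed is not given in the sources used here. The high and low arrays therefore share strain, parity and lack of treatment, and differ in the measured score and in hour. The labels describe the fourth gland with its lymph node removed, whereas the methods describe several glands of the left side that were flash-frozen, and which was used was not settled here.

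Dividing cells switch on the genes of DNA synthesis and then those of mitosis, and resting cells keep both sets low. In the adult mammary gland, cell division follows the ovarian cycle. Estrogen, acting through its receptor, induces the progesterone receptor in a subset of luminal cells, and these hormone-sensing cells pass signals to neighbouring epithelial cells that divide. Lobules form and regress within each cycle, and the stroma and its macrophages change with them.

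The 6 score genes were 2.33 to 3.37 log2 units higher in the high arrays by construction, so these values are a description with no test. Cdk1, the kinase that starts mitosis (probe set 1367776_at), had intensities from 121 to 778 with a median of 214 in the high arrays, and from 23.0 to 31.5 with a median of 27.8 in the low arrays. Ccnb2, a cyclin partner of Cdk1, ran from 151 to 1103 with a median of 257 in the high arrays and from 20.4 to 40.8 with a median of 29.1 in the low arrays. Mki67, a chromosome coat protein used as a marker of dividing cells, ran from 157 to 1118 with a median of 261 in the high arrays and from 27.4 to 44.2 with a median of 34.9 in the low arrays. Ccnb1, the other B-type cyclin, Ccna2, a cyclin needed from S phase on, and Top2a, a DNA topoisomerase, had differences of 2.33, 3.29 and 2.57 on the log2 scale. The low arrays were thus alike in these genes, while the high arrays spread widely, and the array of 62.5 h stood far above the rest.

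The promoters of 3 of these genes are shown to let the sequence elements known from mitotic genes be seen in 2 that hold both and 1 that holds only one kind. The windows run from 250 bases before to 50 bases after the RefSeq start site in the GRCr8 assembly, printed 5′ to 3′ on the gene's strand. Capitals mark the CHR element TTTGAA and the CCAAT box, each searched on both strands, so that CCAAT on the other strand appears as ATTGG. The Cdk1 window is chr20:19265043-19265342 (plus strand), that of Ccnb2 is chr8:79981609-79981908 (minus strand) and that of Ccnb1 is chr2:33655176-33655475 (minus strand).
Cdk1: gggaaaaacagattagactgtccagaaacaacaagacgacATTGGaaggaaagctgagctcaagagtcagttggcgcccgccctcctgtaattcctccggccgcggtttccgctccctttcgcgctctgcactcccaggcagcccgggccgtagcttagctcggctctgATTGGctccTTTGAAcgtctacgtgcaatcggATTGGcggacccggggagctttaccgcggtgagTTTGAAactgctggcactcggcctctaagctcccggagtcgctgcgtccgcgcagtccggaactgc
Ccnb2: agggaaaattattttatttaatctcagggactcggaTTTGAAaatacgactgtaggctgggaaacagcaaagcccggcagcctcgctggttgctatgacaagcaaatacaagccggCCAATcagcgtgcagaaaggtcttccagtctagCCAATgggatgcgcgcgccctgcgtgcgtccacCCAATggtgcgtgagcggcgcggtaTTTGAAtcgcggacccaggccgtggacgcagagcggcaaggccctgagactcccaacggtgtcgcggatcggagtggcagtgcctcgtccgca
Ccnb1: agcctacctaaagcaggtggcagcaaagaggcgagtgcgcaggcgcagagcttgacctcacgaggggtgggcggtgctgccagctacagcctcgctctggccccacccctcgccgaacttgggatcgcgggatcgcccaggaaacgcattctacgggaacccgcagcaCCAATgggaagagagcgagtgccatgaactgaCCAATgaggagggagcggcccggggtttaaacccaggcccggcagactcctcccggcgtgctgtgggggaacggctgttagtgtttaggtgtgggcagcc
Cdk1 and Ccnb2 each held 2 CHR elements and 3 CCAAT boxes in this window, whereas Ccnb1 held 2 CCAAT boxes and no TTTGAA. Of the 6 score genes, 5 had a promoter in the table used, 4 of them held a CHR element and 5 a CCAAT box. A match describes the letters only and is no measurement of binding.

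The hours of the 2 groups did not overlap. The high arrays came from 37.1 to 82.5 h of the cycle and the low arrays from 7.5 to 35.5 h. By score, the high arrays were those of 62.5 h (3.60), 43 h (2.39), 58 h (1.75), 37.1 h (1.62), 61.3 h (1.21), 82.5 h (0.72), 57 h (0.67) and 59.8 h (0.63). The low arrays were those of 14.6 h (-1.22), 16 h (-1.25), 32.8 h (-1.26), 34.5 h (-1.31), 7.5 h (-1.35), 17.6 h (-1.47), 35.5 h (-1.51) and 10 h (-1.56). The nearest arrays outside were that of 67.1 h, at 0.50, below the high group, and that of 83.9 h, at -0.55, above the low group. The low group was thus set off by a wide step, and the lower edge of the high group was not.

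By cycle day, the high arrays were 0 of 8 on day 1, 2 of 8 on day 2, 5 of 8 on day 3 and 1 of 7 on day 4. The low arrays were 5 of 8 on day 1, 3 of 8 on day 2 and 0 on days 3 and 4. Day 2, the day of estrus, was the only day with both, and its low arrays of 32.8, 34.5 and 35.5 h preceded its high arrays of 37.1 and 43 h. Not every early array was low, since those of 7, 13, 13.2 and 31.6 h had scores of 0.01, -0.09, -0.44 and 0.05. Score and cycle time were therefore confounded, and what went with proliferation and what went with the cycle cannot be told apart by the 16 arrays alone. The clock hour of sampling was 12.65 ± 3.16 h in the high arrays and 12.06 ± 3.61 h in the low arrays (SD, n = 8 each), and that difference was within the spread (two-sided exact permutation test, p = 0.730).

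**Figure D1:**
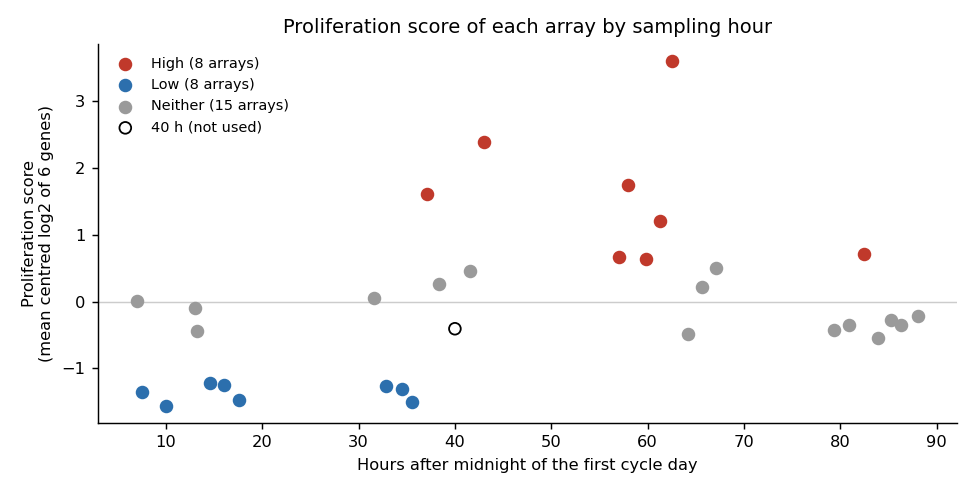
Proliferation score of each array (mean centred log2 intensity of 6 genes) against the hour of sampling, with high arrays in red, low arrays in blue, the 15 arrays in neither group in grey and the unused array of 40 h open. All 8 low points lie between 7.5 and 35.5 h and all 8 high points between 37.1 and 82.5 h.

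The groups overlapped in array quality. Median intensities of single arrays lay between 49.96 and 54.7 in the high and between 49.9 and 53.2 in the low arrays. The log2 ratio of the 3′ to the 5′ probe set of beta-actin, a sign of RNA integrity, ran from 1.40 to 1.93 in the high and from 1.45 to 2.10 in the low arrays. The summed intensity of 8 skeletal muscle markers, tissue that borders the gland, ran from 3948 to 33562 (median 6488) in the high and from 1815 to 43261 (median 15516) in the low arrays, and its part in the results was not tested. In whole tissue, fewer cells of a type and less RNA per cell cannot be told apart.

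Across the 21061 probe sets with an intensity of 10 or more on all 31 arrays, 485 were higher (2.3%) and 326 were lower (1.55%) in the high arrays by limma (adjusted p threshold 0.05). At an unadjusted p under 0.05 there were 4173 in either direction (19.8%). With 1 probe set per gene the adjusted calls came to 378 higher (3.37%) and 166 lower (1.48%) of 11205 genes. Since the arrays were grouped by measured values, a p here says only that a gene went with the score across these rats. The median gene differed by 0.03 on the log2 scale. The counts depended on single arrays, with 737 probe sets higher without the array of 59.8 h, and 261 higher and 195 lower without that of 16 h.

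Genes of the cell division cycle were among the increases and not among the decreases. Of 172 further genes on cell cycle lists that were measured, 78 were higher (45.3%) and 0 were lower (0.0%) by limma, where 1 was lower at an unadjusted p under 0.05. At least 50 of the 78 were still called whichever array was left out. For 44 of the 172 the high arrays all lay above the low ones (25.6%), and for none below.

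Genes of mitosis and cytokinesis had the highest median of the lists. Of 55 measured, 36 were higher and 0 lower, 19 did not pass, and the list's median difference was 1.06 on the log2 scale. Cdkn3, a phosphatase that acts on cyclin-dependent kinases, had intensities from 72.0 to 460 (median 142) in the high arrays and from 10.97 to 21.4 (median 15.1) in the low arrays. The groups were well apart, with a log2 difference of 3.31 (standard error 0.30, adjusted p = 4.15e-06 from limma). Cks2, a subunit of cyclin-dependent kinases, ran from 166 to 1234 (median 348) in the high arrays and from 27.3 to 49.5 (median 41.3) in the low arrays, again without overlap and 3.17 higher (standard error 0.33, adjusted p = 2.60e-05 from limma). Ube2c, which marks mitotic cyclins for destruction, was 2.87 higher, Nusap1, a spindle protein, 2.84, Prc1, which bundles the microtubules of the dividing cell's midzone, 2.73, Racgap1, a regulator of cytokinesis, 2.64, the mitotic kinesin Kif20a 2.55 and the spindle pole protein Aspm 2.48. The groups overlapped for none of these 8 genes.

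Kinetochore genes, whose products join chromosomes to the spindle, followed. Of 18 measured, 11 were higher and 0 lower (median 0.93 on the log2 scale). The count was 7 without the array of 16, 35.5, 37.1, 43 or 62.5 h. Knstrn, a spindle and kinetochore protein, ran from 45.5 to 236 (median 96.2) in the high arrays and from 10.2 to 14.9 (median 12.6) in the low arrays. The groups did not overlap, and the log2 difference was 2.93 (standard error 0.25, adjusted p = 2.10e-06 from limma). Spc25 and Nuf2, parts of the complex that holds microtubules, were higher by 2.34 and 2.15, Cenpf by 2.31 and Cenpw by 2.13.

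DNA replication genes had a lower median. Of 50 measured, 19 were higher and 0 lower, all 50 differences were positive, and the median was 0.56 on the log2 scale. The count fell to 7 without the array of 10 or 37.1 h, 8 without 16 or 43 h, 10 without 17.6 or 58 h, 11 without 35.5 h and 12 without 7.5 h. Pclaf, a partner of the replication clamp, ran from 118 to 1233 (median 249) in the high arrays and from 29.6 to 37.1 (median 35.9) in the low arrays. No high array reached into the low range, and the difference was 2.99 (standard error 0.36, adjusted p = 1.24e-04 from limma). Among the helicase subunits, Mcm5 was higher by 1.45, Mcm3 by 0.97, Mcm2 by 0.83 and Mcm4 by 0.77. Among enzymes of nucleotide supply, Tk1 was higher by 0.93, Rrm1 by 0.78, Dut by 0.77 and Tyms by 0.60. Of 22 genes of DNA repair and chromatin in S and G2 phase, 9 were higher (5 without the array of 10, 16, 35.5, 37.1 or 43 h), with Uhrf1, which keeps DNA methylation through replication, at 2.10 and the histone H2ax at 0.88.

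Calls were a smaller part of the cell cycle transcription factors and G1 regulators than of the lists above. Over all genes 3.37% were higher. Differences were positive for 11 of 12 such factors (median 0.25) and 10 of 15 G1 genes (median 0.13). In the fit by sampling window given further on, 4 and 5 of them were called higher. Of 12 cell cycle transcription factors 1 was higher, E2f1, at 0.82 (a call lost in 12 of the 16 runs that left out 1 array), while Foxm1, an activator of mitotic genes, had a difference of 0.66 that did not pass (adjusted p = 0.0601 from limma). Of 15 G1 cyclins, kinases and inhibitors 2 were higher, and both are inhibitors: Cdkn1c ran from 544 to 1054 (median 819) in the high arrays and from 375 to 562 (median 491) in the low arrays, and Cdkn2d was 0.39 higher, though not in 5 of those runs. Ccnd1, cyclin D1, did not differ by more than the spread, with a median of 1844 in the high arrays, a median of 2039 in the low arrays and a log2 difference of 0.05 (standard error 0.20).

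A further 60 genes on the cell cycle lists were below an intensity of 10 on at least 1 array and so outside the test. When no minimum was applied, 25 of them were higher and 0 lower. Their median log2 difference was 0.88.

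Among the promoters of the cell cycle genes that were higher, 67 were in the table used. The CHR element was present in 32 of the 67 (47.8%), in 11.2% of the 9308 promoters of genes in the fit and in 18.1% of all 27457 promoters of the same length. CCAAT was present in 61.2% of the 67, 37.6% of the genes in the fit and 37.7% of all promoters. Both together were in 34.3%, 4.59% and 7.25% of them, and the E2F site TTTGGCGC or TTTCGCGC was in 13.4%, 1.42% and 0.841%, all searched on both strands and free to share bases. Among the 256 higher genes outside the lists that had a promoter, 13.7% held a CHR element and 42.6% a CCAAT box, and among 134 lower genes 16 held a CHR element and 50 a CCAAT box.

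**Figure D2:**
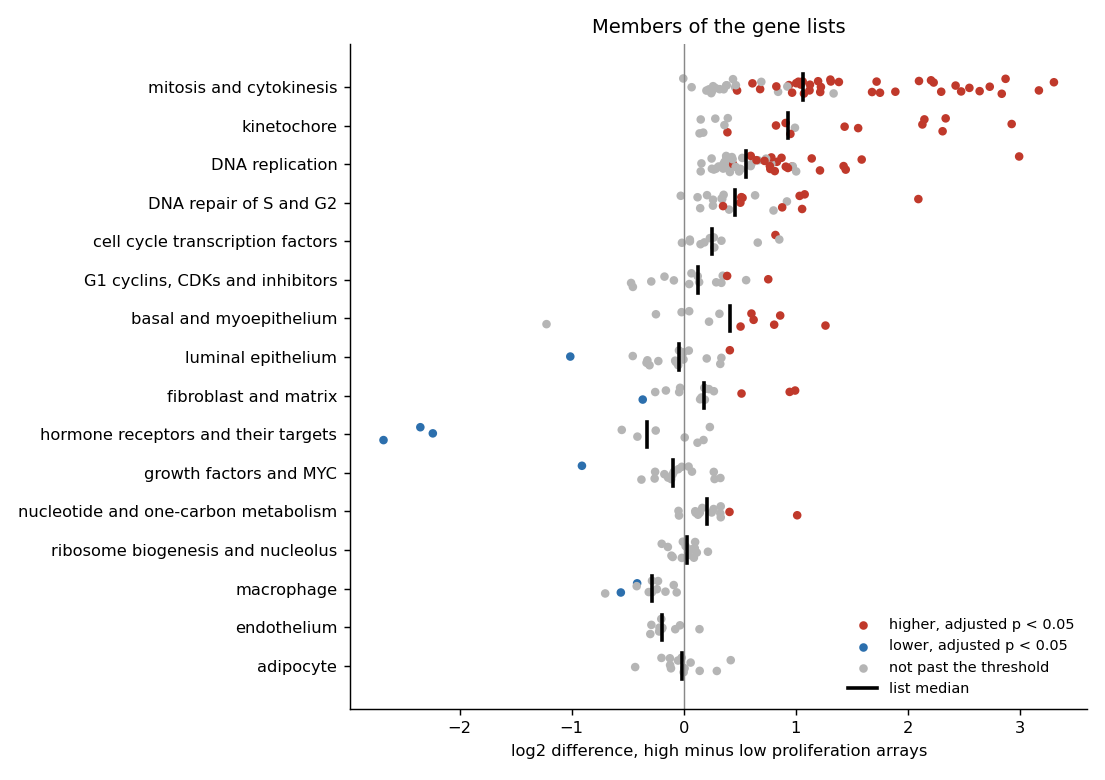
Log2 difference, high minus low arrays, of each measured member of 16 gene lists, with members that were higher in red, lower in blue, those that did not pass in grey and the list median as a black bar. The mitosis list has its median at 1.06 and the DNA replication list at 0.56, while the macrophage list lies wholly below 0.

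Outside the cell cycle lists, 300 of 11033 genes were higher (2.72%) and 166 were lower (1.5%). The groups did not overlap for 58 higher genes (0.526%) and 42 lower genes (0.381%). The lists are not complete, so a few of the 300 genes still belong to cell division, such as Cdca5l1, named for its likeness to a protein that holds sister chromatids together, at 1.42, and Fam111a, a protease of the replication fork, at 1.43.

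The largest increase was that of Csap1, a secreted protein first known from salivary gland. It had 3886, 2916, 3601, 533, 1109, 1196, 4313 and 1775 in the high arrays in order of falling score, and from 49.1 to 286 (median 137) in the low arrays. All 8 high arrays lay above all 8 low ones, and the log2 difference was 3.92 (standard error 0.44, adjusted p = 4.87e-05 from limma). LOC102552398, an unnamed gene, ran from 86.7 to 1238 (median 436) in the high arrays and from 10.98 to 100.3 (median 19.6) in the low arrays. The highest low array reached the range of the high ones, and the log2 difference was 3.82 (standard error 0.61, adjusted p = 0.00175 from limma). The cytokine Il17b ran from 102 to 874 (median 401) in the high arrays and from 51.1 to 145 (median 77.1) in the low arrays, a difference of 2.05 (standard error 0.35, adjusted p = 0.00322 from limma), with some overlap.

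Genes of matrix and mesenchyme were among the increases. Tnc, tenascin-C, a matrix protein of tissue that is being remodelled, ran from 32.7 to 163 (median 84.8) in the high arrays and from 10.7 to 29.0 (median 18.9) in the low arrays. The groups did not overlap, and the difference was 2.21 (standard error 0.32, adjusted p = 7.62e-04 from limma). Of 15 fibroblast and matrix genes 3 were higher and 1 was lower (median 0.18). Thy1, a surface protein of stromal cells, ran from 255 to 418 (median 312) in the high arrays and from 104 to 206 (median 167) in the low arrays, without overlap and 0.99 higher (standard error 0.14, adjusted p = 4.68e-04 from limma). Lum, a collagen-binding proteoglycan, was higher by 0.95 (not without the array of 16 h, adjusted p = 0.0530) and Postn, periostin, by 0.52, whereas Pdgfrb, a receptor of pericytes and fibroblasts, differed by -0.37. In the fit with cycle day and clock hour given further on, Thy1 alone of the 15 was called, so Lum, Postn and Pdgfrb lost their calls. With the sampling window 1 of the 15 was higher and 0 were lower.

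Several contractile genes of the myoepithelium, the cell layer that squeezes milk from the alveoli, were higher. Of 12 basal and myoepithelial markers 6 were higher and 0 lower, with 9 of the 12 differences positive and a median of 0.41. At an unadjusted p under 0.05 from limma, 1 of the 12 was lower. In the fits given further on, 1 of the 12 was called higher with the sampling window and 0 with cycle day and clock hour. Actg2, smooth muscle gamma actin, ran from 802 to 1864 (median 1219) in the high arrays and from 346 to 774 (median 510) in the low arrays. The groups did not overlap, and the difference was 1.27 (standard error 0.19, adjusted p = 0.00104 from limma). Cnn1, Acta2, Tagln, Myh11 and Mylk, all of the contractile apparatus, were higher by 0.86, 0.81, 0.62, 0.61 and 0.51, and of these Myh11 lost its call in 9 of the 16 runs that left out 1 array. These genes are also made by smooth muscle of vessels, which was not measured apart. The basal keratins Krt5 and Krt14 had differences of 0.32 and 0.05 that did not pass, and Krt15, outside the list, was 1.27 higher (adjusted p = 0.0332 from limma) but not without the array of 10, 14.6, 16, 35.5, 37.1, 43, 58 or 62.5 h (highest adjusted p = 0.0702). The summed intensity of the 12 markers ran from 11752 to 18574 in the high and from 7647 to 11655 in the low arrays.

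Other increases were of mixed function. Capn6, a calpain without protease activity that binds microtubules, ran from 91.5 to 193 (median 139) in the high arrays and from 25.9 to 69.9 (median 47.0) in the low arrays, without overlap and 1.64 higher (standard error 0.23, adjusted p = 4.64e-04 from limma). Mia, a small secreted protein of cartilage and melanoma, was 1.58 higher, Scg3, a protein of secretory granules, 1.51, the carbonyl reductase Cbr1 1.40, Clca1, a secreted regulator of chloride channels, 1.22, Cmtm5 1.22 and Trim59 1.22. In the fits given further on, Trim59 lost its call by sampling window and by cycle day with clock hour (adjusted p = 0.0708 and adjusted p = 0.188 from limma). Cbr1 lost it by sampling window alone (adjusted p = 0.215). Clca1 lost it by cycle day with clock hour (adjusted p = 0.0638) and without the 2 highest arrays (adjusted p = 0.0756). Capn6, Mia, Scg3 and Cmtm5 kept it in both fits with terms for time. Of 14 genes of nucleotide and one-carbon metabolism 2 were higher, Mthfd2, a mitochondrial folate enzyme, at 1.01 and Prps1 at 0.41, and both lost the call in 8 or more of the 16 runs. Of 14 ribosome biogenesis genes 0 passed in limma and 0 had an unadjusted p under 0.05, with a median of 0.03, and Myc had a difference of -0.25 that did not pass.

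Genes of hormone response were among the largest decreases. Pgr, the progesterone receptor (probe set 1387563_at), had 67.4, 34.0, 57.3, 54.3, 47.6, 60.2, 49.4 and 46.6 in the high arrays in order of falling score, and from 164 to 409 (median 272) in the low arrays. Every high array lay below every low one. Its log2 difference was -2.35 (standard error 0.18, adjusted p = 7.68e-07 from limma). Greb1, a cofactor of the estrogen receptor that estrogen induces, ran from 17.6 to 30.3 (median 25.4) in the high arrays and from 82.4 to 305 (median 145) in the low arrays, a difference of -2.68 (standard error 0.22, adjusted p = 1.90e-06 from limma). Stc2, a secreted glycoprotein induced by estrogen in human breast cells, ran from 21.4 to 42.5 (median 27.5) in the high arrays and from 102 to 187 (median 133) in the low arrays, a difference of -2.24 (standard error 0.17, adjusted p = 7.68e-07 from limma). For Greb1 and Stc2, too, no high array reached the low ones. Of 10 hormone receptors and targets measured, these 3 were lower and 0 were higher. The estrogen receptor Esr1, Tnfsf11 (RANK ligand), Foxa1 and Calca were below an intensity of 10 on at least 1 array and so outside the test. Areg, an epidermal growth factor family ligand that estrogen induces, had a difference of -0.55, the prolactin receptor Prlr -0.41 and Wnt4, a signal induced by progesterone, 0.01, and none of them passed.

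Further decreases included Cited4, a coactivator of transcription, which ran from 20.8 to 31.0 (median 25.9) in the high arrays and from 96.5 to 306 (median 155) in the low arrays, without overlap and with a difference of -2.65 (standard error 0.21, adjusted p = 8.29e-07 from limma). Among enzymes, Cyp2e1, a cytochrome P450, differed by -2.29, the aldo-keto reductase Akr1c15 by -1.84 and the methyltransferase Inmt by -1.55. Smim38 differed by -1.88, the amino acid transporter subunit Slc7a7 by -1.63, the axonemal dynein Dnah7 by -1.56, Zbtb40 by -1.61, Lpal2 by -1.65 and LOC100910319 by -1.92. The growth factor betacellulin, Btc, ran from 16.5 to 30.4 in the high arrays and from 28.6 to 61.6 in the low arrays, a difference of -0.91. It was the single call among 16 measured genes of the growth factor list, which also holds receptors, binding proteins and Myc. Prom1, a surface marker of hormone-sensing luminal cells in mouse, ran from 277 to 591 (median 444) in the high arrays and from 602 to 1358 (median 958) in the low arrays, with no overlap and a difference of -1.01. The luminal keratin Krt8 was 0.41 higher (not in 8 of the 16 runs), and the other 16 of 18 luminal markers did not pass. In both fits with terms for time given further on, by sampling window and by cycle day with clock hour, Prom1 lost its call (adjusted p = 0.249 and adjusted p = 0.169 from limma), as did Btc (adjusted p = 0.844 and adjusted p = 0.671) and Krt8 (adjusted p = 0.874 and adjusted p = 0.628). Neither fit called Cyp2e1 (adjusted p = 0.430 and adjusted p = 0.160 from limma) or Smim38 (adjusted p = 0.809 and adjusted p = 0.462). Slc7a7 (adjusted p = 0.190 and adjusted p = 0.129) and Zbtb40 (adjusted p = 0.410 and adjusted p = 0.307) also lost theirs in both. Cited4 and Inmt kept the call in both fits. Akr1c15 and Lpal2 kept it by sampling window alone, Dnah7 and LOC100910319 by cycle day with clock hour alone.

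The matrix proteases Mmp11 and Mmp3 were lower. Mmp11, stromelysin-3, which stromal cells make during involution, ran from 55.8 to 206 (median 97.9) in the high arrays and from 390 to 929 (median 513) in the low arrays. The groups did not overlap, and the log2 difference was -2.39 (standard error 0.23, adjusted p = 7.71e-06 from limma). Mmp3, stromelysin-1, ran from 10.1 to 25.9 (median 16.3) in the high arrays and from 24.2 to 85.0 (median 37.0) in the low arrays, a difference of -1.35 (standard error 0.27, adjusted p = 0.0110 from limma), and its groups overlapped slightly. Of 12 genes of apoptosis and involution these 2 were lower and 0 were higher. The stress-induced factor Atf3 differed by -1.02 and was the single call among 9 immediate early genes. With cycle day and clock hour, neither Mmp3 (adjusted p = 0.175 from limma) nor Atf3 (adjusted p = 0.155) passed.

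Macrophage markers had small negative differences. Of 12 measured 2 were lower and 0 higher, all 12 differences were negative, and the median was -0.28. Cd163, a scavenger receptor, ran from 211 to 329 (median 286) in the high arrays and from 306 to 564 (median 415) in the low arrays, a difference of -0.56, and Adgre1, the F4/80 antigen, differed by -0.42, a call lost in 12 of the 16 runs. Both calls were lost with the sampling window (Cd163 adjusted p = 0.342 and Adgre1 adjusted p = 0.181 from limma) and with cycle day and clock hour (adjusted p = 0.404 and adjusted p = 0.356), where the median of the 12 was -0.09. Cxcl13, a chemokine that draws B cells, ran from 215 to 1935 (median 806) in the high arrays and from 1909 to 4277 (median 2720) in the low arrays, a difference of -1.92 (standard error 0.34, adjusted p = 0.00419 from limma), with 1 high array inside the low range. Its highest values among the high arrays, 1935 at 57 h and 1354 at 61.3 h, were in the arrays with the most lymphocyte signal, where 9 lymphocyte markers summed to 3608 and 4160 against 906 to 1247 in the low arrays.

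**Figure D3:**
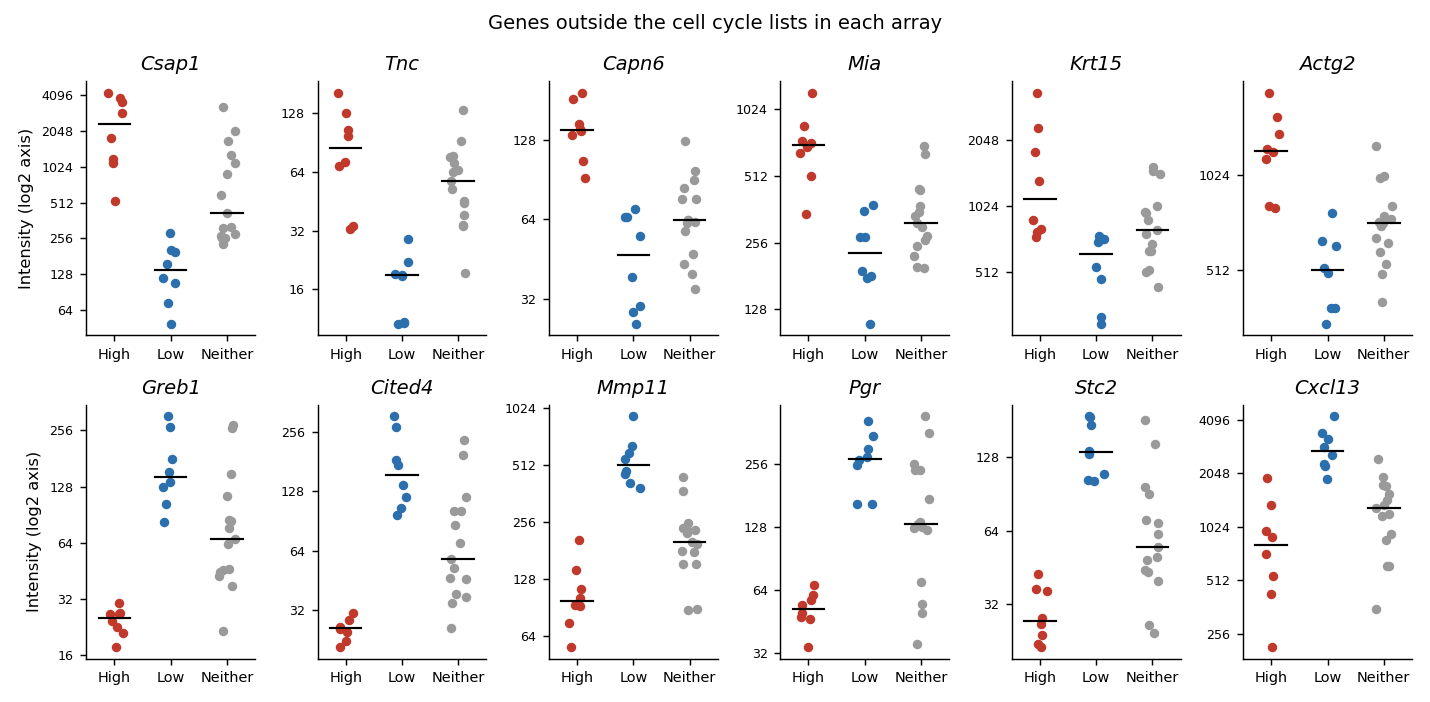
Intensity on a log2 axis of 12 genes outside the cell cycle lists in each of the 8 high (red), 8 low (blue) and 15 other (grey) arrays, with the median of each as a black line. Csap1, Tnc, Capn6, Actg2, Greb1, Cited4, Mmp11, Pgr and Stc2 show no overlap between high and low arrays.

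Several tissues showed no call. Of 9 milk protein genes, 13 adipocyte markers, 16 circadian clock genes, 10 endothelial markers, 9 lymphocyte markers, 8 MHC class II genes and 12 interferon-stimulated genes, 0 passed in limma, with list medians from -0.22 to 0.29. Of these 77 genes 1 was higher and 6 were lower at an unadjusted p under 0.05. Of 13 genes of fatty acid and sterol synthesis 1 was higher, the desaturase Scd2, at 0.98, a call lost in 10 of the 16 runs.

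The 15 arrays in neither group, with scores from -0.55 to 0.50, give a readout that the grouping did not use. There, 4 of 21061 probe sets (0.019%) had a slope on the score at an adjusted p under 0.05 from limma. None was negative (0.0%), and the positive ones were Racgap1 (slope 1.49 log2 units per unit of score), Ube2c (1.15), Nusap1 (1.08) and Cenpf (0.94). At an unadjusted p under 0.05 there were 993 (4.71%). Of the 78 cell cycle genes that were higher, 76 had a positive slope in these arrays and 41 of them had an unadjusted p under 0.05, where 56.3% of all genes had a positive slope and 3.21% had one at that p.

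Of the 300 higher genes outside the lists, 243 (81%) had a positive slope and 42 (14%) also an unadjusted p under 0.05. Csap1 had a slope of 2.02 (unadjusted p = 0.0184 from limma), Tnc 1.18 (unadjusted p = 0.00855), Krt15 1.03 (unadjusted p = 0.00530), Mia 0.98 (unadjusted p = 0.00755) and Capn6 0.89 (unadjusted p = 0.00827). None of these passed after adjustment over all probe sets. Il17b and LOC102552398 had slopes of -0.64 and -1.60, opposite in sign to their high minus low difference.

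Of the 166 lower genes, 115 (69.3%) had a negative slope and 17 (10.2%) also an unadjusted p under 0.05, where 1.31% of all genes had a negative slope at that p. Cxcl13 had a slope of -1.18 (unadjusted p = 0.0173 from limma). Pgr had a slope of -1.02 (unadjusted p = 0.172), Greb1 -0.89 (unadjusted p = 0.223), Stc2 -0.86 (unadjusted p = 0.126) and Mmp11 -0.049 (unadjusted p = 0.915). Of the 15 largest decreases 10 had a negative slope. Cyp2e1 (1.23), Inmt (0.75), Dnah7 (0.52), Slc7a7 (0.27) and Zbtb40 (0.089) had positive slopes, opposite in sign to their high minus low difference. All 12 macrophage markers had negative slopes, with a median of -0.18, although 0 of them were called in the fits with terms for time, and 11 of 12 basal and myoepithelial markers had positive ones, with a median of 0.38. The 8 muscle markers had a median slope of -2.34, so lower scores went with more muscle signal there, and the part of this in the slopes was not tested.

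Because the groups differed in hour, the score was also fitted over all 31 arrays with terms for time. With the sampling window as a factor, up to 35.5 h or from 37.1 h on (a division chosen after seeing the data), 977 genes rose with the score (8.72%) and 318 fell (2.84%). Of the cell cycle genes that were higher, 77 of 78 were called, of the 300 others 155, and of the 166 lower genes 62. The arrays that gave the first calls are among the 31, so kept calls are no independent readout. Among the 15 largest increases outside the lists 10 kept the call, Tnc with a slope of 0.56 (adjusted p = 0.00395 from limma), Csap1 with 0.71 (adjusted p = 0.00715) and Capn6 with 0.43 (adjusted p = 0.00114). LOC102552398 and Il17b had slopes of -0.21 and -0.024 (adjusted p = 0.734 and adjusted p = 0.948), and Actg2 had 0.20 (adjusted p = 0.0828). Cbr1 with 0.18 (adjusted p = 0.215 from limma) and Trim59 with 0.28 (adjusted p = 0.0708) did not pass either.

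Among the 15 largest decreases 8 kept the call within the windows. Mmp11 had a slope of -0.59 (adjusted p = 6.92e-04 from limma), Cxcl13 -0.64 (adjusted p = 3.68e-04), Greb1 -0.44 (adjusted p = 0.0287) and Stc2 -0.34 (adjusted p = 0.0241). Pgr had -0.35 and did not pass (adjusted p = 0.0916). The 4 early arrays in neither group, with scores from -0.44 to 0.05, gave values of these genes at early hours. Mmp11 stood at 231, 180, 373 and 88.6 at 7, 13, 13.2 and 31.6 h, all below the lowest of the 8 low arrays, at 390, which came from 7.5 to 35.5 h. Pgr stood at 361, 132, 433 and 255 there, of which 361 and 255 lay within the range of the low arrays, 132 below it and 433 above it.

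The high minus low difference was also fitted over the 31 arrays with terms for cycle day and clock hour. Only day 2 held both groups. On the other days this difference is indirect: it runs through the arrays in neither group and takes the effect of day as additive. In that fit 1.98% of genes were higher and 0.321% lower. It called 66 of the 78 cell cycle genes, 94 of the 300 other higher genes and 30 of the 166 lower genes. Arrays that gave the first calls are part of this fit and of the day 2 fit below, so kept calls are no independent readout. Pgr (-1.63, adjusted p = 0.0376 from limma), Greb1 (-1.95, adjusted p = 0.0144), Stc2 (-1.66, adjusted p = 0.00615), Mmp11 (-2.31) and Thy1 (adjusted p = 0.0135) passed, whereas none of the 6 contractile genes did (Actg2 0.77, adjusted p = 0.0712). On day 2 alone, a subset also chosen after seeing the data, where 2 high arrays faced 3 low ones, 0.892% of genes were higher and 0.241% lower, among them 56 of the 78, 20 of the 300 and 18 of the 166. There Pgr stood at 54.3 and 34.0 in the high arrays of 37.1 and 43 h, against 252, 347 and 276 in the low arrays of 32.8, 34.5 and 35.5 h. The arrays of 38.3 h and 41.6 h, in neither group, had 241 and 35.3, so the array of 38.3 h lay below the 3 low arrays of day 2, within the range of all 8 low arrays, and that of 41.6 h lay between the high arrays of day 2.

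**Figure D4:**
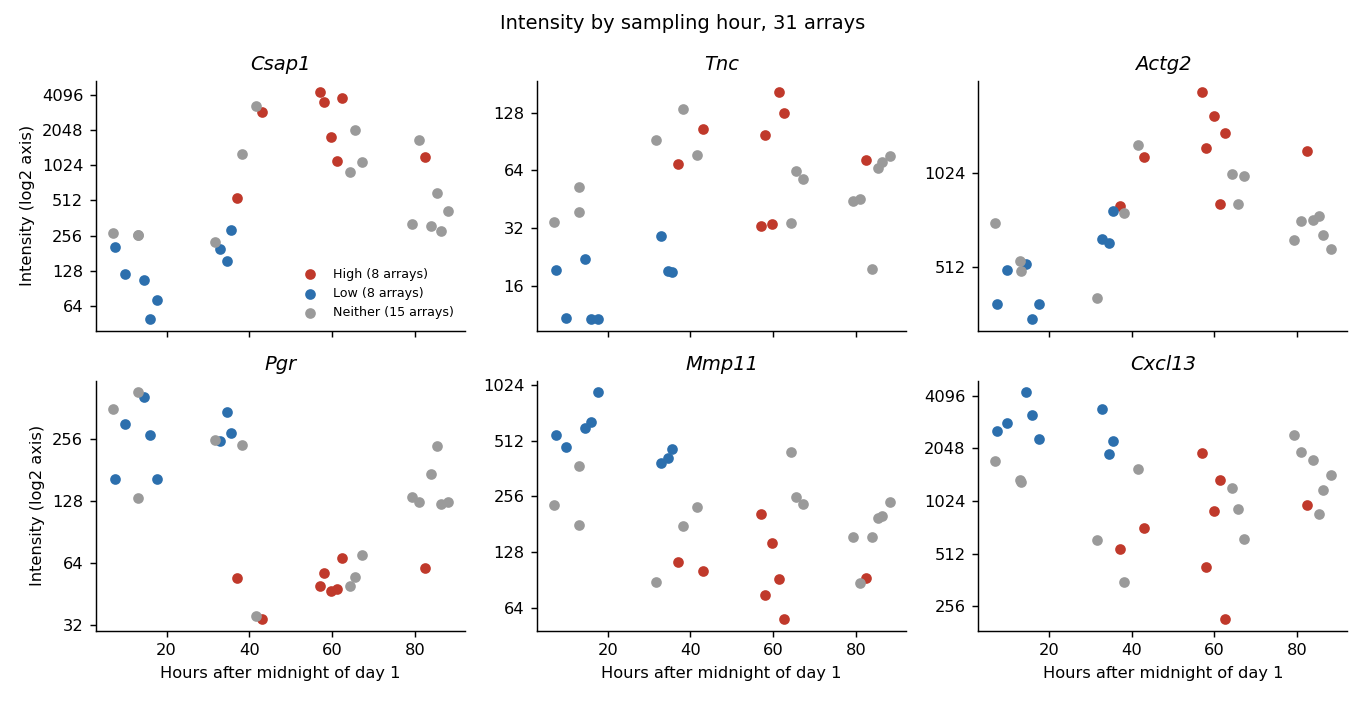
Intensity on a log2 axis of 6 genes against the hour of sampling in 31 arrays, with high arrays in red, low arrays in blue and the others in grey. Mmp11 is lower in the early grey points (88.6 to 373) than in the blue points (390 to 929), whereas Pgr is at 132 to 433 in the early grey points and 164 to 409 in the blue ones.

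The 2 highest arrays, of 62.5 and 43 h, carried part of the calls. Without both of them, a setting chosen after seeing the data, 223 probe sets were higher and 191 lower, and 54 of the 78 cell cycle genes, 116 of the 300 other higher genes and 89 of the 166 lower genes were still called. All 300 and all 166 kept their sign. These genes had been called with the remaining arrays included, so kept signs and calls are no independent readout. Without them DNA replication had 10 genes called, mitosis 31 and the basal and myoepithelial list 5, and Pgr, Greb1, Stc2, Cited4 and Mmp11 had differences of -2.32, -2.70, -2.21, -2.64 and -2.24.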

How the data were processed

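RNA of 1 rat per array was hybridised to the Affymetrix Rat 230 2.0 array. The authors deposited intensity values on a linear scale from GC-RMA, named without a version in the submitters' notes on processing. The method subtracts background by probe sequence and then normalizes the arrays together, which bears most on values near background. Labels and methods differ on tissue and RNA handling. The number of arrays limits the precision, and no batch was known.

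Of 31099 probe sets, 57 controls were left out, and 21068 had an intensity of 10 or more on all 31 arrays. The 7 probe sets of the score genes were left out of the fit, leaving 21061. Genes were named from the platform annotation through Entrez identifiers (GRCr8 table); 20826 probe sets had 1 symbol, 436 several and 9780 none. A gene was represented by its probe set of highest mean log2 intensity. Groups were compared on log2 intensity with limma's lmFit and eBayes and Benjamini-Hochberg adjustment over all probe sets, with a threshold of 0.05. The score slope was fitted in the other 15 arrays. Named are the 6 score genes, the 15 largest increases and 15 largest decreases outside the cell cycle lists past the threshold, the 10 largest changes inside them and members of the other lists that passed or define them. The 33 gene lists, the groups and these rules were chosen with earlier results of these data known. Promoters came from RefSeq (GRCr8).

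The fits were tested on simulated data with known changes. Alternatives covered the filter, normalization, score, group size, covariates, variance model and each array left out. R 4.3.3, limma 3.58.1, Python 3.11.15, numpy 2.4.6, pandas 2.3.3, scipy 1.17.1 and matplotlib 3.10.9 were used.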

Additional observations from a re-analysis of the deposited data

Results flagged for a closer look

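Of 94 groups of values tested for a sample far from the others, 2 stood out (2.13%), where chance marks about 1 in 20. The array of 62.5 h had a Ccna2 intensity of 1191, with a gap to the next high array of 0.528 of the group's log2 range. Ccna2 helped to rank the arrays, and this array ranked first, so the chance rate does not apply and the gap is only a description. The array of 14.6 h had a Prc1 intensity of 38.2, the highest of the low arrays, with a gap of 0.599 of that group's range.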

How the results depend on the processing

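The main counts were 485 probe sets higher and 326 lower, 398 and 326 of them outside the cell cycle lists. With 3 groups over 31 arrays 876 were higher (759 outside), and with cycle day and clock hour added 270 were higher (190 outside) and 78 lower. With the score as a slope over 31 arrays 1987 were higher (1834 outside) and 1162 lower, and with day and hour 1952 (1802 outside) and 877. With 6 against 6 arrays 748 were higher (656 outside). Settings chosen after seeing the data gave 223 (161 outside) and 191 without both highest arrays, 118 (49 outside) and 56 on day 2 alone, and 1425 (1277 outside) and 705 with the sampling window. Leaving out 1 array gave 261 to 737 higher (202 to 637 outside) and 195 to 412 lower. Single arrays moved the higher count to 321 (7.5 h left out), 281 (10 h), 261 (16 h), 290.0 (35.5 h), 300.0 (37.1 h), 314 (43 h), 303 (58 h), 316 (62.5 h) and 737 (59.8 h), the higher count outside the lists also to 261 without the array of 17.6 or 61.3 h, and the lower count to 210.0 (10 h), 195 (16 h), 215 (61.3 h) and 211 (62.5 h). All other settings kept these counts within 1.5 times, and the 4 other ways to score chose the same 16 arrays.

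In the 15 other arrays the 4 positive slopes became 7 with no filter, 1 with the clock hour and 0 with the cycle day (chosen after seeing the data), and 2 to 6 with 1 array left out, with 0 to 1 negative. The clock hour difference was 0.59 h, and -0.32 to 1.38 h with 1 array left out. Among 40 named genes, 1347 of the alternative results kept direction and call, 62 lost the call and 2 reversed: with the sampling window LOC102552398 had -0.21 and Il17b -0.024. The 1347 include the 4 other ways to score, whose results were fixed in advance because they use the same 16 arrays. Of the 40 genes, 16 lost the call on day 2 alone, 12 with cycle day and clock hour and 10 with the sampling window. The cause of these differences was not tested. No paired analysis was possible because each hour holds 1 rat and replicate numbers only name arrays.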

Other observations

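The array of 40 h, which the study discarded because its values looked corrupted, had a proliferation score of -0.41 on the same scale, below the arrays of the neighbouring hours, 38.3 h (0.27) and 41.6 h (0.46). It had a Csap1 intensity of 64.7, a Pgr intensity of 270 and the highest summed muscle signal of the 32 arrays, 68890, and these values may not be reliable.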
